A study of Mus musculus with 71 samples.

Results

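Matured oocytes made directly from mouse embryonic stem cells were compared with their immature counterparts after 25 days of induction, to see which polyadenylated transcripts lost and which gained share. The comparison used 4 of the 71 samples of the series: the 2 libraries of MII DIOLs and the 2 libraries of DIOLs collected on day 25. It was made over 11603 genes tested, out of 15140 usable genes in the deposited table. Its unit is TPM, a share of each library's transcripts corrected for transcript length, so it gives no amount of RNA per cell.

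DIOLs are oocyte-like cells, which the labels also call directly induced oocytes, made in culture from embryonic stem cells. All 4 libraries came from the line of genotype MGA8 on a C57BL/6 X 129 background, induced in medium with 0.5 µM Shield1, a ligand that stabilises proteins carrying a matching degradation domain; the labels do not list the genes the line carries. For the MII cells, 50000 stem cells were mixed with 30000 to 75000 somatic cells of fetal female gonads. Follicles were dissected by hand between days 21 and 28, grown in vitro for a further 7 to 11 days and then matured in vitro to MII, the metaphase of the second meiotic division at which mouse eggs wait for fertilisation. The protocol also describes stem cells aggregated alone, and it does not say which culture gave the day 25 libraries. Follicle growth, somatic co-culture and meiotic maturation therefore lie together between the groups and cannot be told apart. The labels do not say how many cells made up a library or whether the libraries of a group came from separate cultures, so the tests can speak only for variation among the libraries at hand. In vivo oocytes labelled vivo-comp-GV and vivo-incomp-GV, of genotype Blimp1-Venus and Stella-CFP on the same background with 3 libraries each, and DIOLs of days 5, 10 and 15 with 2 libraries each are used as reference levels. The table's column names mark the vivo-comp-GV libraries 3w and the vivo-incomp-GV libraries 2w, a difference that the labels do not describe.

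A growing oocyte transcribes and stores messenger RNA, then falls silent, so that maturation proceeds without new transcription. In that silent period some stored mRNAs with short poly(A) tails have their tails lengthened and are translated, often through U-rich cytoplasmic polyadenylation elements bound by CPEB proteins, while others are deadenylated and destroyed. Both kinds of event change what a poly(A)-selected library holds. A longer tail and more mRNA cannot be told apart here, nor can a shorter tail and less mRNA.

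The 4 libraries agreed within their groups. Log2(TPM + 1) correlated across genes with Pearson's r of 0.987 between the MII libraries, 0.991 between the day 25 libraries and 0.761 to 0.776 between groups, as a description in which genes are not independent. At 1 TPM or more, 8011 and 8277 genes were present in the MII libraries and 8919 and 8852 in the day 25 libraries. All 8 oocyte markers were above 1 TPM in every library, with a summed level of 21182 and 20725 TPM at MII and 55474 and 55572 TPM on day 25. Granulosa markers differed between the groups: 10 of them summed to 218 and 595 TPM at MII and to 4.06 and 1.56 TPM on day 25. Markers of the cumulus cells that surround a maturing oocyte, 5 genes, summed to 41.2 and 76.2 TPM at MII and to 0.3 and 0.72 TPM on day 25. These somatic markers therefore moved with the comparison, and their part in each result was not tested.

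The scale of the 2 groups differed. A scaling factor was taken for each of the 26 DIOL and GV libraries. It is the median log2 ratio of a library to the gene means, over 7988 genes above 0 in all of them. The mean factor of the MII libraries minus that of the day 25 libraries was -0.98. The median non-zero level was 6.44 and 6.37 TPM in the MII libraries and 13.6 and 14.2 TPM in the day 25 libraries. Every gene was therefore tested both on TPM as deposited and on TPM rescaled by the scaling factors. In what follows a gene "rose" if it passed the test upward as deposited, which every such gene also did after rescaling, and "fell" if it passed downward under both scalings. Passing meant an adjusted p under 0.05 and a log2 change of at least 1 in limma on log2(TPM + 1), a scale that understates the change of low genes.

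By that rule 2298 genes rose, 19.8% of those tested, and 3281 fell, 28.3%. As deposited, 4391 genes were lower, 37.8%, which makes 6689 genes called in either direction, 57.6%. After rescaling 3557 genes were higher, 30.7%, so the split between higher and lower genes depends on the scaling. Another 1110 genes, 9.57%, were lower as deposited only, and 1259 genes, 10.9%, were higher only after rescaling. The remaining 3655 genes, 31.5%, passed under neither scaling, and no gene was called higher under one scaling and lower under the other. As deposited, the median log2 change over all tested genes was -0.39. Large changes were common: 537 of the risen genes changed by a factor of 8 or more and 41 by 32 or more, and among fallen genes these counts were 1410 and 129. The genes that rose held 12.6% and 12.4% of the listed TPM on day 25 and 69.5% of it in each MII library. The genes that fell held 54% and 54.2% on day 25 and 4.18% and 4.53% at MII. These shares describe the genes so chosen and are no test of them.

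**Figure D1:**
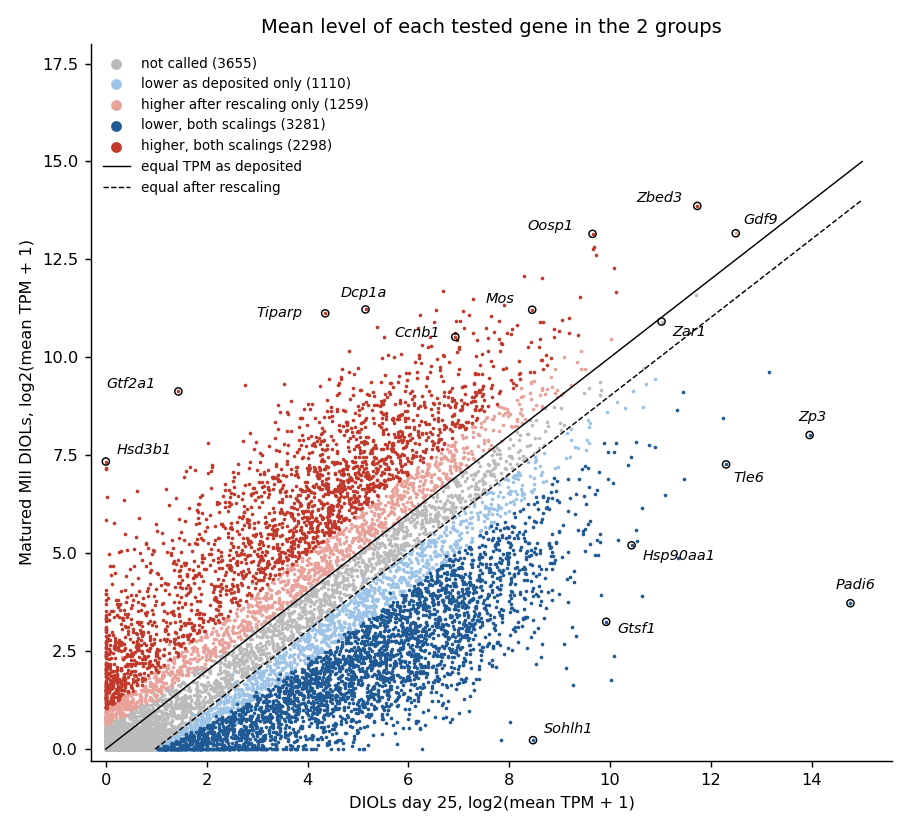
Each point is 1 of the 11603 tested genes, with log2(mean TPM + 1) of the 2 DIOLs day 25 libraries on the x axis and of the 2 MII libraries on the y axis, coloured by its call. The solid line marks equal TPM and the dashed line equality after rescaling, 0.98 lower; Padi6 lies far below both lines and Gtf2a1, Tiparp and Dcp1a far above.

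The most abundant transcripts among the listed genes changed places; the table covers part of the genome, so ranks hold within it only. Padi6, a peptidylarginine deiminase needed for the lattices of the egg cytoplasm (chr4:140727355-140742643, GRCm38), was the highest listed gene on day 25 at 27971 and 27807 TPM, and stood at 13.8 and 10.7 TPM at MII. This was the largest fall of all tested genes, with a log2 change of -11.05 ± 0.13 (SE, limma, adjusted p = 2.5e-22), and the groups lay far apart. In vivo, Padi6 averaged 10509 TPM in vivo-incomp-GV and 5661 TPM in vivo-comp-GV oocytes. Zp3, the egg coat protein that sperm bind, was next on day 25 at 16048 and 15773 TPM and dropped to 262 and 254 TPM at MII. The top place at MII was taken by Zbed3, a partner of the subcortical maternal complex, with 16043 and 13804 TPM against 3455 and 3335 TPM on day 25. Gdf9, the growth factor by which an oocyte drives its follicle cells, was high in both groups, at 9269 and 9128 TPM at MII and 5596 and 5924 TPM on day 25. Its log2 change of 0.68 ± 0.17 was short of the threshold as deposited and was 1.66 after rescaling.

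Gtf2a1 showed the largest log2 change upward of all tested genes. It encodes the large subunit of the general transcription factor TFIIA (chr12:91555262-91590487) and had 561 and 556 TPM at MII against 1.5 and 1.91 TPM on day 25. The log2 change was 7.70 ± 0.24 (adjusted p = 6.9e-17), and the in vivo oocytes did not share the level, with means of 3.09 TPM in vivo-incomp-GV and 4.38 TPM in vivo-comp-GV. Tiparp, a mono-ADP-ribosyltransferase, stood at 2224 and 2234 TPM at MII and at 17.8 and 21 TPM on day 25, a log2 change of 6.78 ± 0.15. Dnajb4, a heat shock protein 40 cochaperone, had 665 and 597 TPM against 6.75 and 4.87 TPM. Unlike Gtf2a1, both were well above day 25 in vivo-comp-GV oocytes, at means of 562 TPM for Tiparp and 256 TPM for Dnajb4. Slc6a15, a transporter of neutral amino acids, had 95.7 and 74.9 TPM at MII and was listed at 0 and 0.04 TPM on day 25. The zinc importer Slc39a10, which supplies the zinc an oocyte needs to mature, rose from 8.89 and 12.1 TPM to 628 and 652 TPM, whereas its relative Slc39a6 fell from 198 and 186 TPM to 24 and 20.2 TPM.

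Dormant mRNAs known to be recruited for translation during mouse maturation rose as a group. Of the 18 tested members 14 rose, 77.8% beside 19.8% of all genes, 2 were higher only after rescaling and 1 fell, with a median log2 change of 3.08 beside -0.39 for all genes. The list was chosen for its known behaviour and with earlier results of these data in view, so its direction is no independent evidence. Dcp1a, an activator of the decapping enzyme, was the strongest, at 2390 and 2389 TPM at MII against 38.4 and 30.7 TPM on day 25, with a log2 change of 6.08 ± 0.11 (adjusted p = 8.1e-20). The MII libraries were alike and no day 25 library came near them. Mos, the kinase that holds an egg at metaphase through the MAP kinase pathway, had 2359 and 2395 TPM against 336 and 364 TPM. Ccnb1, cyclin B1, rose from 131 and 111 TPM to 1437 and 1499 TPM, but 46.9% of its transcript sequence is shared with other annotated genes, so its reads could be split. Bub1b, which encodes the checkpoint kinase BubR1, rose from 91.2 and 89.8 TPM to 1919 and 1910 TPM. Slbp, the protein that binds histone mRNA stem-loops, reached 2631 and 2529 TPM from 248 and 227 TPM. Among RNA regulators of the list, Cnot6l, a deadenylase, had 265 and 242 TPM against 31.2 and 26.3 TPM, and the translation activator Dazl had 159 and 192 TPM against 18.2 and 22 TPM. Tpx2, a spindle assembly factor, changed less, from 113 and 112 TPM to 282 and 296 TPM. Several of these transcripts were above their day 25 level in vivo-comp-GV oocytes too, with means of 405 TPM for Dcp1a, 1169 TPM for Bub1b, 1319 TPM for Mos, 248 TPM for Ccnb1 and 1207 TPM for Slbp. The member that fell was Ccno, a cyclin O gene singled out here after its values were seen, which fell from 1808 and 1707 TPM to 243 and 192 TPM.

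**Figure D2:**
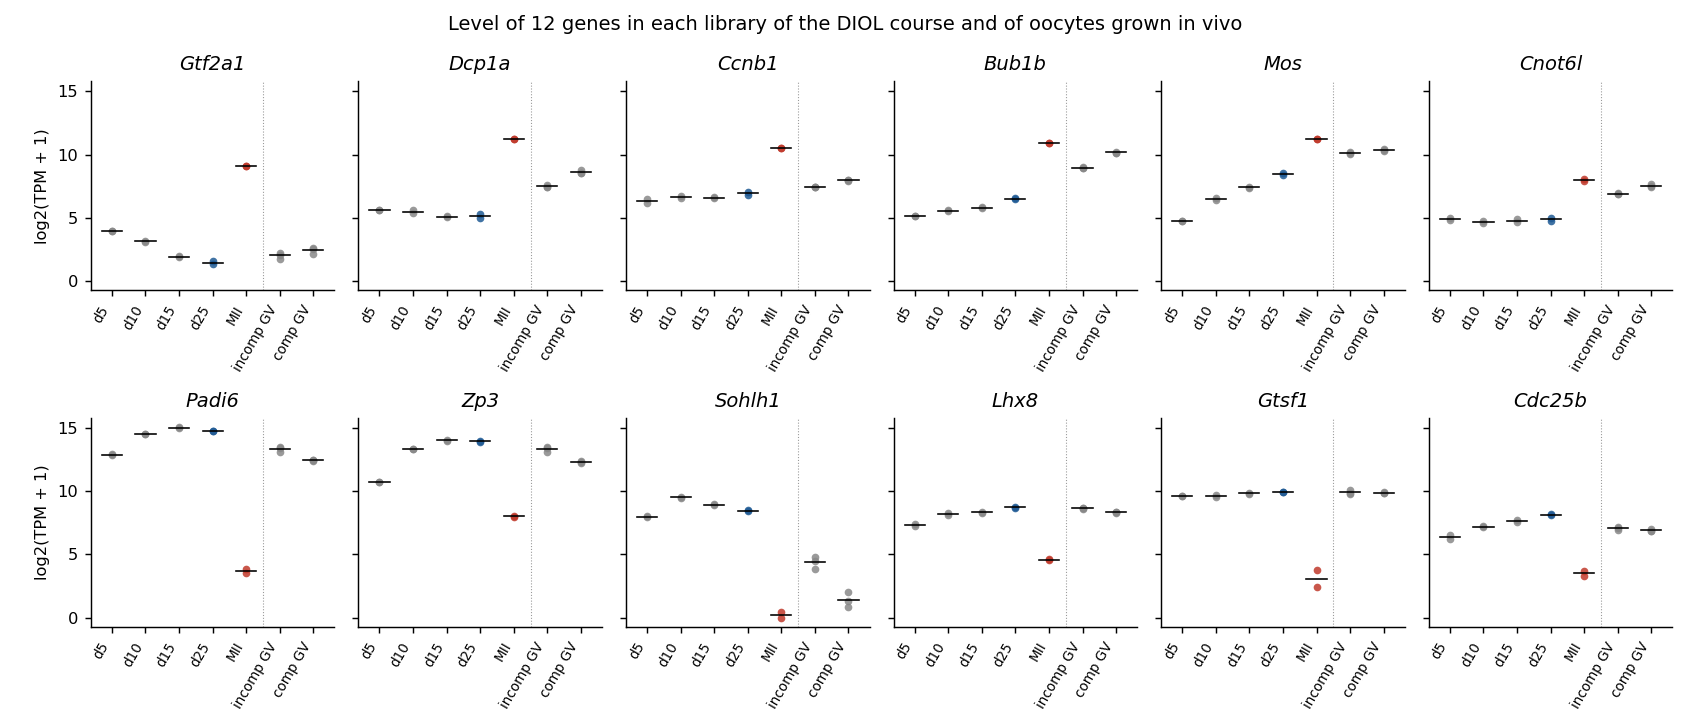
Points show log2(TPM + 1) of 12 genes in every library of DIOLs days 5, 10, 15 and 25 and MII (left of the dotted line) and of in vivo incomp and comp GV oocytes (right), with a line at each mean. Gtf2a1, Dcp1a, Ccnb1, Bub1b, Mos and Cnot6l lie far higher at MII than on day 25, and Padi6, Zp3, Sohlh1, Lhx8, Gtsf1 and Cdc25b far lower.

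Regulators of meiotic arrest and resumption moved in both directions. Of 24 tested members 10 rose, 41.7% beside 19.8% of all genes, and 6 fell, 25.0%, near the 28.3% of all genes. The median log2 change was 0.09. Among those that rose, Fbxo43 encodes Emi2, the inhibitor of the anaphase-promoting complex that maintains metaphase arrest, and had 421 and 393 TPM at MII against 17.8 and 13.3 TPM on day 25. Cdc27, a subunit of that complex, rose from a mean of 17.8 TPM to 329 and 322 TPM, and its mean in vivo-comp-GV oocytes was 60.5 TPM. Mastl, the Greatwall kinase that restrains a phosphatase opposing CDK1, rose from 19.9 and 17.3 TPM to 294 TPM in both MII libraries. Gpr3, the receptor that keeps cyclic AMP high in arrested oocytes, had 43 and 40 TPM against 14.7 and 9.02 TPM, a log2 change of 1.76 ± 0.18. Cdk1, the catalytic partner of cyclin B, went from 95.9 and 121 TPM to 1.9 and 3.77 TPM, a log2 change of -4.87 ± 0.15 (adjusted p = 7.1e-17). Cdc25b, the phosphatase that activates it, went from 282 and 287 TPM to 12.2 and 8.76 TPM. The anaphase-promoting complex activator Fzr1 dropped from 472 and 453 TPM to 14.9 and 16.6 TPM, and its inhibitor Fbxo5, Emi1, from 136 and 129 TPM to 7.42 and 2.78 TPM. The vivo-comp-GV means of these 4 fallen genes were 110 TPM, 121 TPM, 339 TPM and 256 TPM. Aurka, the Aurora A kinase, overlapped between groups at 290 and 319 TPM and 291 and 278 TPM, and counted as higher only after rescaling.

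Spindle, kinetochore and cohesion genes rose more often than genes in general, though the list also held some of the deepest falls. Of 33 tested members 18 rose, which is 54.5% beside 19.8% of all genes, and 9 fell, 27.3% beside 28.3%, with a median log2 change of 1.17. Smc3, a core cohesin subunit, had 365 and 330 TPM at MII against 16.5 and 16.9 TPM on day 25. The kinetochore motor Cenpe rose from 14.3 and 12.9 TPM to 235 and 202 TPM. Both Kif18a, which dampens chromosome oscillation, at 223 and 226 TPM from 15.8 and 17.5 TPM, and Kif20b, a cytokinesis motor, at 198 and 202 TPM from 12.8 and 13.5 TPM, rose with close replicates. In contrast Tacc3, a stabiliser of spindle microtubules (chr5:33658128-33678995), was at 1060 and 1020 TPM on day 25 and at 2.42 and 2.35 TPM at MII, a log2 change of -8.26 ± 0.07 (adjusted p = 3.1e-25). In vivo-comp-GV oocytes Tacc3 averaged 1093 TPM, close to day 25. Smc1b, the meiosis-specific cohesin subunit, dropped from 101 and 117 TPM to 1.66 and 1 TPM. Kif2c, a microtubule depolymerase, did not pass, at 137 and 111 TPM and 130 and 134 TPM, with a log2 change of -0.09 ± 0.14.

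Enzymes of mRNA deadenylation, decapping and decay rose more often than genes in general. Of 27 tested genes 13 rose, 48.1% beside 19.8%, and 5 fell, 18.5% beside 28.3%, with a median log2 change of 0.87. Cnot8, a catalytic subunit of the CCR4-NOT deadenylase, had 589 and 632 TPM at MII and 51.7 and 50.2 TPM on day 25. Pan2, the nuclease of the other main deadenylase, rose from 47 and 38.8 TPM to 463 and 481 TPM. Btg1, a CCR4-NOT adaptor, rose from 7.91 and 7.66 TPM to 139 and 118 TPM, with a mean of only 8.62 TPM in vivo-comp-GV oocytes. Ythdf3, a reader of N6-methyladenosine, stood at 366 and 329 TPM against 34.8 and 34.4 TPM. Cnot2, a scaffold subunit of CCR4-NOT, was at 66 and 76.1 TPM at MII and 123 and 138 TPM on day 25 and did not pass, with a log2 change of -0.87 ± 0.09.

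Genes of proteins that store mRNA and control its translation moved in both directions. Of 19 tested 6 rose, 31.6% beside 19.8% of all genes, and 6 fell, 31.6% beside 28.3%. The median log2 change was -0.10. Cpeb4, which takes over from CPEB1 at later steps of maturation, rose from 2.14 and 2.2 TPM to 154 and 136 TPM, a log2 change of 5.52 ± 0.20 (adjusted p = 7.1e-16). Its level in vivo-comp-GV oocytes, 5.63 TPM on average, was near that of day 25. Ybx2, the germ-cell protein that coats stored mRNA, went the other way, from 1630 and 1552 TPM to 66 and 74.2 TPM. Pabpc1l, the oocyte poly(A)-binding protein, fell from 343 and 308 TPM to 10.8 and 7.91 TPM, and Patl2, an oocyte repressor of translation, from 196 and 201 TPM to 19.6 and 24.3 TPM. Zar1, which organises stored mRNA near mitochondria, did not pass, with 1986 and 1872 TPM and 2121 and 2031 TPM and a log2 change of -0.11 ± 0.31; it shares 44.8% of its sequence with other genes.

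The ends of the transcripts were read for the cytoplasmic polyadenylation element, since it links mRNAs to tail lengthening. The letters TTTTAT or TTTTAAT were searched for on the transcript strand in the last 100 bases of each gene's longest annotated 3′ untranslated region, and the polyadenylation signal AATAAA in the last 40; TTTTAAT can run into the signal and share its bases, as in TTTTAATAAA. The sequences below are 30-base stretches of GENCODE M21 transcripts on GRCm38, 5′ to 3′, that stop at the signal, which lies 15 to 33 bases before the annotated transcript end; the element and the signal are in capitals. They show 5 genes that rose, then Gdf9, Fn1 and Col1a1, which did not.
Dcp1a: atatgtttgcaaatatatttTTTTAATAAA
Bub1b: ctctcctttcactgtgtaTTTTATAATAAA
Pan2: tgcttaaaacagcatgTTTTATaaAATAAA
Kif20b: gtatcttgtatataaTTTTAATtcAATAAA
Zbed3: ttgcaacactccttttttttTTTTAATAAA
Gdf9: tgctgtggTTTTATgtgacggaagAATAAA
Fn1: ctactgtggaaagacaagtgTTTTAATAAA
Col1a1: gtTTTTAATtattttgattgctggAATAAA

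All 8 lie in the last exon of their gene. The stretches of Dcp1a, Bub1b and Pan2 are at chr14:30527001-30527030, chr2:118641547-118641576 and chr10:128321301-128321330, and those of Kif20b and Zbed3 at chr19:34975693-34975722 and chr13:95337797-95337826. Gdf9 has its stretch at chr11:53437858-53437887, Fn1 on the minus strand at chr1:71585537-71585566 and Col1a1 at chr11:94952994-94953023; the other 7 genes lie on the plus strand. Fn1, a matrix protein, did not pass at 8.99 and 8.75 TPM at MII and 9.45 and 9.85 TPM on day 25. Col1a1, a collagen of stromal cells, was called lower at 0 and 0.49 TPM against 5.71 and 0.96 TPM, a call lost without the first day 25 library (log2 change -0.68, adjusted p = 0.33) or the first MII library (-1.28, adjusted p = 0.098). The letters alone therefore did not mark a gene that rose.

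Across all genes the element went with the direction of change. Of 10546 tested genes with an annotated 3′ end, 19.0% held it, beside 18.2% of the 13163 genes with such an end in the table. The share was 33.3% of 2205 genes that rose and 9.85% of 2994 that fell. It climbed with the change in steps, from 7.14% of 504 genes with a log2 change under -4 to 43.5% of 154 genes with a change over 4 as deposited, and from 6.53% to 41.2% over the same bins after rescaling. AATAAA was present in 71.2% of risen and 54.6% of fallen genes, against 62.5% of all. Transcripts that rose also had longer 3′ regions, with a median of 1620 bases against 781 for those that fell and 1123 for all. In the third of genes with the highest mean TPM the element was in 35.4% of those that rose and 8.97% of those that fell, and in the third with the lowest mean TPM in 26.3% and 11.3%. Within the dormant mRNA list 4 of the 14 that rose held the letters in this window, and none of the letters were found there in Ccnb1, Mos, Dazl or Cnot6l, which says only that the annotated last 100 bases of the longest form lack them. These shares are descriptions with no test; a match of letters is not a shown site.

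**Figure D3:**
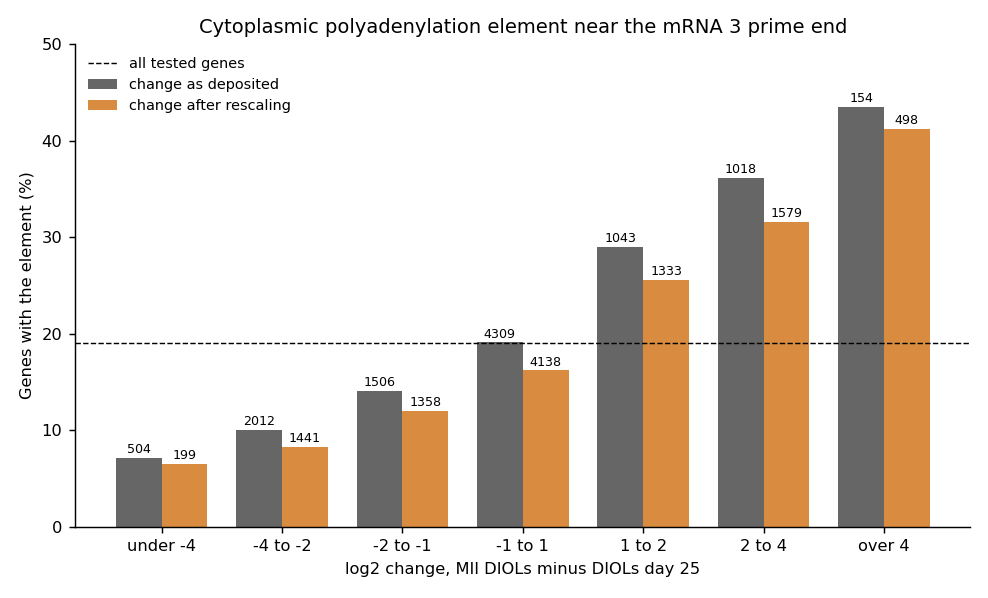
Bars give the percentage of genes whose last 100 bases hold TTTTAT or TTTTAAT, in bins of log2 change as deposited (grey) and after rescaling (orange), with the number of genes above each bar. The dashed line is the 19.0% of all tested genes; the bars climb from left to right under both scalings.

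Egg coat, secreted and maternal complex genes did not move as one. Of 8 tested egg coat and secretion genes 2 rose, 25.0% beside 19.8% of all genes, and 2 fell, 25.0% beside 28.3%. Oosp3 and Oosp1, secreted proteins of the oocyte, rose from 106 and 98.4 TPM to 3367 and 3260 TPM and from 792 and 816 TPM to 9198 and 9018 TPM. Zp1, which cross-links the egg coat, fell with Zp3, from 4999 and 4694 TPM to 403 and 299 TPM. Bmp6, a growth factor, overlapped at 145 and 123 TPM and 144 and 136 TPM. Of the 4 tested genes of the subcortical maternal complex list, which the early embryo needs, Zbed3 rose while Padi6 and Tle6 fell, the last from 5117 and 4974 TPM to 155 and 152 TPM. In the list of growing oocyte transcripts 8 of 19 rose, 42.1% beside 19.8% of all genes, and 6 fell, 31.6% beside 28.3%. Npm2, the histone chaperone of the egg nucleus, fell from 2706 and 2984 TPM to 132 and 105 TPM. Tcl1, an AKT coactivator, rose from 817 and 800 TPM to 6809 and 7194 TPM, and Oog3, an oogenesin with 26.9% of its sequence shared with other genes, from 364 and 435 TPM to 4179 and 4167 TPM. Gja4, connexin 37, through which an oocyte couples to its granulosa cells, fell from 573 and 580 TPM to 71.5 and 60.9 TPM. Orai1, a calcium channel of the cell surface, fell from 70.7 and 73.2 TPM to 0.77 and 1.92 TPM. Its change was the largest among 5 fallen of 11 fertilisation and egg activation genes, 45.5% beside 28.3% of all genes.

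Transcription factors of oocyte growth and those the study screened fell more than they rose: 9 of 18 tested fell, 50.0% beside 28.3% of all genes, and 3 rose, with a median of -1.91. Sohlh1, an early oocyte regulator (chr2:25842995-25847248), went from 346 and 362 TPM to 0 and 0.34 TPM, a log2 change of -8.26 ± 0.27 (adjusted p = 1.5e-16). In vivo its mean was 20.6 TPM in vivo-incomp-GV and 1.84 TPM in vivo-comp-GV oocytes. Lhx8, a homeobox factor of primordial follicles, fell from 417 and 431 TPM to 24.2 and 22.2 TPM, although vivo-comp-GV oocytes still averaged 326 TPM. Tbpl2, the oocyte paralogue of the TATA-binding protein, fell from 144 and 161 TPM to 25.8 and 22.5 TPM, and its mean in vivo-comp-GV oocytes was 17.6 TPM. Stat3 did not pass, with 235 and 278 TPM at MII and 292 and 296 TPM on day 25. Kdm1b, the demethylase needed for maternal imprints, was lower as deposited only, at 340 and 296 TPM against 804 and 751 TPM.

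Genes of the piRNA and small RNA pathway were low at MII in larger part than genes in general. Of 22 tested 11 fell, 50.0% beside 28.3% of all genes, and 2 rose, 9.1% beside 19.8%. The median log2 change was -1.87. Gtsf1, a cofactor of Piwi proteins, was at 977 and 963 TPM on day 25 and 4.27 and 12.7 TPM at MII, a log2 change of -6.83 ± 0.25, or -6.14 without the first MII library and -7.53 without the other. Piwil2 fell from 97.3 and 93 TPM to 1.22 and 1.49 TPM. The Tudor-domain scaffold proteins Tdrd1, from 260 and 269 TPM to 15.8 and 14.2 TPM, and Tdrd7, from 42 TPM in both libraries to 2.29 and 1.93 TPM, fell as well. Ddx4, the germ-cell helicase, did not pass at 162 and 146 TPM and 222 and 214 TPM. Dicer1, which makes the small interfering RNAs of mouse oocytes, had 181 and 165 TPM at MII and 156 and 153 TPM on day 25, and was higher only after rescaling.

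Most tested nuclear-encoded genes of the respiratory chain and mitochondrial ribosomal protein lists fell. The respiratory chain and ATP synthase list was drawn by gene name, so it also holds assembly factors such as Ndufaf1. Of its 65 tested genes none rose and 53 fell, 81.5% beside 28.3% of all genes, with a median log2 change of -3.30. The list summed to 18558 and 18734 TPM on day 25 and to 3149 and 3559 TPM at MII, and to between 9051 and 9820 TPM in vivo-comp-GV oocytes. Atp5h, a stalk subunit of ATP synthase, fell from 862 and 879 TPM to 34.1 and 26 TPM. Atp5e, a central-stalk subunit, fell from 1461 and 1477 TPM to 35.5 and 59 TPM. Among members that did not fall, Atp5b, the catalytic beta subunit and higher only after rescaling, had 805 and 858 TPM against 686 TPM in both day 25 libraries, and Sdha, the flavoprotein of complex II, had 204 and 208 TPM against 261 and 245 TPM. Mitochondrial ribosomal proteins behaved in the same direction, with 39 of 59 tested fallen, 66.1%, none risen and a median of -3.01. Mrpl55 fell from 198 and 206 TPM to 3.35 and 3.5 TPM, and Mrps7 from 276 and 278 TPM to 6.57 and 7.6 TPM. Mrpl44, which also trims mitochondrial RNA, was at 139 and 126 TPM against 95.4 and 109 TPM and was higher only after rescaling. The polyadenylation element was held by 3 of 52 fallen respiratory chain genes with an annotated 3′ end, 5.77%, and by 5 of 37 fallen mitochondrial ribosomal genes, 13.5%, beside 9.85% of all fallen genes.

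Proteasome and translation factor genes also fell more often than genes in general. Both lists were drawn by gene name, so they also hold genes such as Psmc3ip and the kinase Eif2ak4. Of 41 tested genes of the proteasome list 24 fell, 58.5% beside 28.3%, and 4 rose, 9.8% beside 19.8%, with a median of -2.33. Psmd6, a lid subunit, fell from 325 and 364 TPM to 18.2 and 18.6 TPM, whereas the core subunit Psma2 had 991 and 1061 TPM against 539 TPM in both day 25 libraries and was higher only after rescaling. Of 47 genes of the translation factor list 19 fell, 40.4%, and 5 rose, 10.6%, with a median of -1.17. Eef1d, an elongation factor exchange subunit, fell from 232 and 235 TPM to 8.19 and 13.2 TPM, while Eif5a, the hypusinated factor, did not pass at 414 and 435 TPM and 476 and 463 TPM. Among 28 DNA replication genes 11 fell, 39.3%, and 7 rose, 25.0%, both above the shares of all genes. Rfc2, a clamp loader subunit, fell from 156 and 141 TPM to 3.94 and 6.72 TPM and Pole, the leading-strand polymerase, from 33.1 and 29.7 TPM to 0.51 and 0.75 TPM. The risen replication genes included Orc1, at 238 and 202 TPM from 46 and 45.2 TPM, and Mcm4, at 212 and 189 TPM from 46.9 and 41.6 TPM, both named after their values were seen. Of 45 tested replication-dependent histone genes 7 fell, a smaller share than the 28.3% of all genes, none rose and 33 passed under neither scaling. Many lay at the floor: of 66 listed, 44 and 48 were at 0 in the MII libraries and 43 and 38 on day 25. Their small share of calls therefore says little. Hsp90aa1, a heat shock protein 90, fell from 1348 and 1402 TPM to 35.2 and 36.5 TPM, with 62.9% of its sequence shared with other genes.

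**Figure D4:**
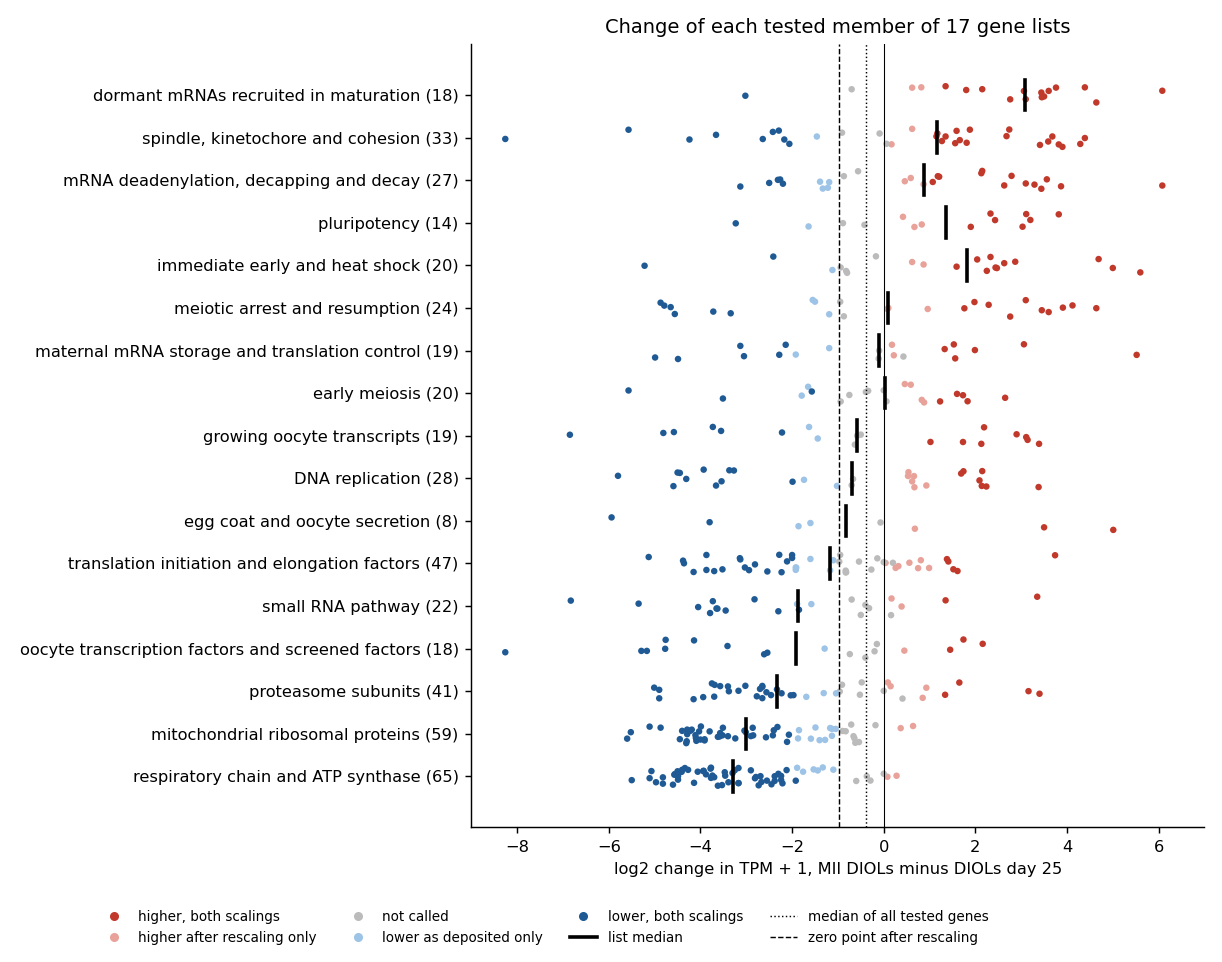
Each point is the log2 change in TPM + 1 (MII minus day 25) of 1 tested member of 17 gene lists, coloured by its call, with the number tested in brackets and a bar at the list median. The dotted line is the median of all genes, -0.39, and the dashed line the zero point after rescaling, -0.98; medians run from 3.08 for dormant mRNAs to -3.30 for the respiratory chain.

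Chromatin, meiotic prophase and pluripotency lists held members that moved in both directions. Suz12, a core subunit of Polycomb repressive complex 2, had 796 and 854 TPM at MII against 22.5 and 26.6 TPM on day 25. Its log2 change of 5.02 ± 0.11 was the largest of 4 rises among 19 oocyte chromatin genes, 21.1% beside 19.8% of all genes. Another 4 fell, 21.1% beside 28.3%. Uhrf1, which directs maintenance of DNA methylation, fell from 1166 and 1042 TPM to 216 and 231 TPM, with 29.4% of its sequence shared. Of 20 early meiosis genes 5 rose, 25.0%, and 3 fell, 15.0%, beside 19.8% and 28.3% of all genes. Sycp3, an axis protein of the synaptonemal complex, had 499 and 521 TPM at MII and 153 TPM in both day 25 libraries, and its means in vivo were 90.5 TPM in vivo-incomp-GV and 27.1 TPM in vivo-comp-GV oocytes. Of 14 pluripotency genes 7 rose, 50.0%, and 1 fell. Sall4 rose from 37.9 and 34.6 TPM to 528 and 521 TPM and Lin28a, an RNA-binding protein, from 56.8 and 54.8 TPM to 462 and 466 TPM. Pou5f1, Oct4, did not pass at 269 and 291 TPM and 512 and 526 TPM, and lay on the zero point after rescaling with a log2 change of 0.09.

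Cholesterol synthesis genes moved in both directions. Of 16 tested 4 rose, 25.0% beside 19.8% of all genes, and 3 fell, 18.8% beside 28.3%, with 5 lower as deposited only. Hmgcs1, which makes the precursor of mevalonate, rose from 71.7 and 74.2 TPM to 1059 and 1065 TPM. Further along the pathway, Fdft1, squalene synthase, fell from 482 and 525 TPM to 11.2 and 17.8 TPM. In vivo-comp-GV oocytes Hmgcs1 averaged 118 TPM. Among 15 genes of glycolysis and pyruvate use, the glucose transporter Slc2a1 rose from 10.8 and 10.5 TPM to 64.1 and 62.7 TPM, and the pyruvate carrier subunit Mpc2 fell from 102 and 120 TPM to 19.3 and 19.5 TPM.

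Granulosa and cumulus genes rose more often than genes in general. Their lists hold the 10 granulosa and 5 cumulus markers given above, so the counts are not a separate observation. The part of these somatic markers in the results was not tested. Of 23 tested granulosa and gonadal genes 13 rose, 56.5%, and of 13 cumulus expansion genes 9 rose, 69.2%, beside 19.8% of all genes. Hsd3b1, a steroid-synthesis enzyme, had 116 and 205 TPM at MII, Gja1, connexin 43 of granulosa cells, had 96.2 and 191 TPM, and Inha, the inhibin alpha chain, had 51.8 and 233 TPM. These 3 genes were listed at 0 in both day 25 libraries, so no fold is given. Ptgs2, the inducible prostaglandin synthase, had 18.1 and 22.2 TPM against 0 and 0.65 TPM, and Tnfaip6, a hyaluronan linker of the expanding cumulus, had 9.96 and 19 TPM against 0 in both day 25 libraries. Not all somatic markers were present: Amh had 0 and 0.95 TPM at MII, Fshr 0.08 and 0.55 TPM, and Krt19 was listed at 0 in all 4 libraries, the last 2 markers being named after their values were seen. The MII libraries differed in many of these genes. Over the 11 granulosa and cumulus markers that rose, replicate 2 exceeded replicate 1 in all 11, by a median log2 ratio of 0.98. Among other risen granulosa genes, Inhbb, Hsd17b1, Hsd3b1 and Nr5a2 were higher in replicate 2, at log2 ratios of 2.551, 2.079, 0.819 and 0.419. Kitl, Esr2 and Gata4 were lower there, at -0.202, -0.171 and -0.159. The marker Krt18, which did not rise, had 2.33 and 0.41 TPM at MII. The median ratio was -0.01 over all 2298 risen genes and 0.00 over the 14 dormant mRNAs that rose. Of the 2298 risen genes 1107 were higher in MII replicate 2. Among them, 443 of the 2298 were under 1 TPM in both day 25 libraries, with a median ratio of 0.16. Of these 443, 277 were higher in MII replicate 2, and the ratio was over 1 in 52 and under -1 in 16. The 119 listed at 0 in both day 25 libraries had a median ratio of 0.29, with 77 higher in that replicate. In bulk RNA, fewer cells of a type and less RNA per cell cannot be told apart.

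**Figure D5:**
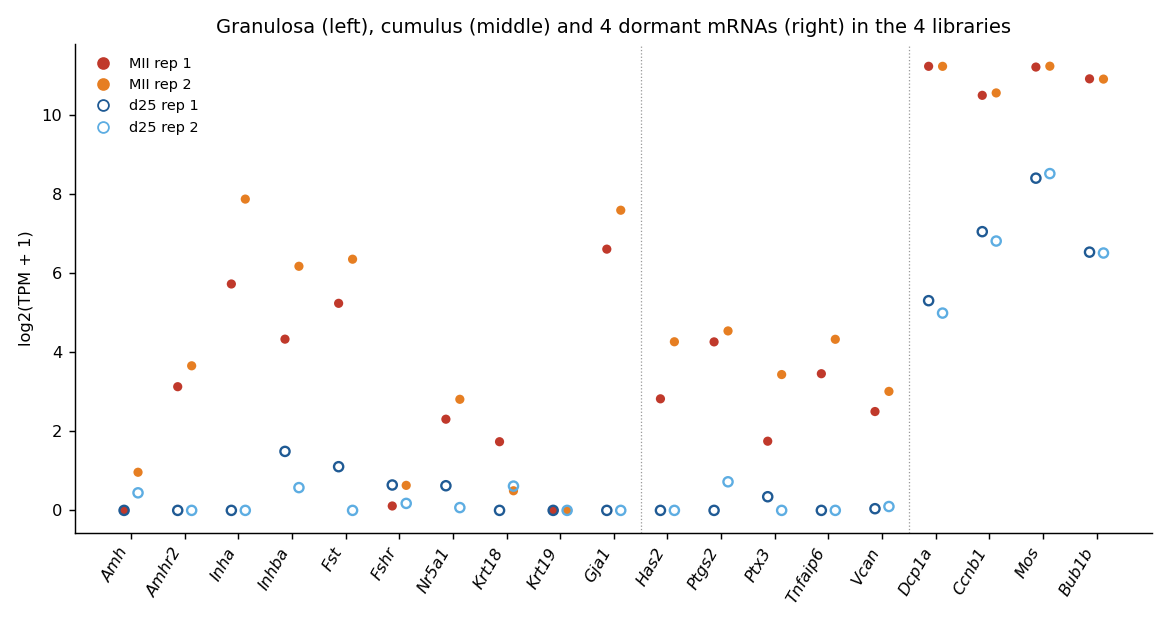
Log2(TPM + 1) of 10 granulosa markers, 5 cumulus markers and 4 dormant mRNAs in the 2 MII (filled) and 2 day 25 (open) libraries. MII replicate 2 lies above replicate 1 for Inha, Inhba, Fst, Gja1 and the 5 cumulus markers, while the filled points of Dcp1a, Ccnb1, Mos and Bub1b nearly coincide.

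Immediate early genes, which many cells switch on within minutes of a stimulus, were listed together with heat shock genes. In that list 11 of 20 rose, 55.0% beside 19.8%, and 2 fell. Separated after the values were seen, 10 of 13 immediate early genes rose, 76.9%, and 1 fell, 7.7%. Of 7 heat shock genes 1 rose and 1 fell, 14.3% each, beside 19.8% and 28.3% of all genes. The immediate early genes summed to 496 and 617 TPM at MII and to 70 and 50.2 TPM on day 25, and the heat shock genes to 1131 and 1209 TPM and to 3527 and 3511 TPM. The heat shock sum includes Hsp90aa1, whose fall and shared sequence are given above. Dusp1, a MAP kinase phosphatase, rose from 8.84 and 9.64 TPM to 313 and 340 TPM, with close replicates. Ier3 had 60 and 46.9 TPM against 0.24 and 0 TPM. Nr4a1, an orphan nuclear receptor, had 21.4 and 43.1 TPM against 0.48 and 0 TPM, with the higher value in the MII library that was also higher in granulosa markers. Thbs1, a matrix protein of granulosa cells and many others, showed the same order with 94.3 and 175 TPM against 3.8 and 0.26 TPM, and its log2 change of 5.72 was 4.75 without the second day 25 library and 6.68 without the first. Of 10 tested blood and macrophage genes 1 rose, 10.0%, and 2 fell, 20.0%. Of 18 stromal and endothelial genes 4 rose, 22.2%, and 1 fell, 5.6%. The shares of all genes were 19.8% and 28.3%. C1qb, a complement subunit of macrophages, fell from 155 TPM in both day 25 libraries to 4.27 and 5.55 TPM. Laptm5 fell from 19.55 and 13.87 TPM to 2.87 and 1.98 TPM. Other macrophage markers were scarce in both groups: C1qa had 1.59 and 0 TPM on day 25 and 0 at MII. Lyz2 and C1qc were listed at 0 in every MII and day 25 library.

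Of 239 solute carriers 68 rose, 28.5% beside 19.8% of all genes, and 59 fell, 24.7% beside 28.3%, with a median of -0.01 beside -0.39. Zinc finger genes were nearer the shares of all genes, and of 194 genes named Zfp 44 rose, 22.7%, and 50 fell, 25.8%. Single members moved far in both directions. Slc16a10, an aromatic amino acid transporter, rose from 7.25 and 5.16 TPM to 270 and 268 TPM, and Slc23a2, a vitamin C transporter, from 22.5 and 18.3 TPM to 714 and 692 TPM. Slc30a3, a zinc exporter, fell from 624 and 580 TPM to 6.7 and 8.62 TPM. Among other deep falls named by the rule, Cpsf4l, a relative of a cleavage and polyadenylation factor, went from 1092 and 1065 TPM to 4.95 and 3.47 TPM, and Bfsp1, a filament protein, from 603 and 620 TPM to 2.58 and 1.68 TPM. Their means in vivo-comp-GV oocytes were 1596 TPM and 226 TPM. Ckb, the brain creatine kinase, fell from 1630 and 1538 TPM to 12 and 16.2 TPM, and Tubb2b, a beta-tubulin with 45.9% of its sequence shared with other genes, from 656 and 626 TPM to 6.69 and 6.06 TPM.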

How the data were processed

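RNA was poly(A)-selected and made into directional libraries, per the labels' protocols. STAR 2.6.0, featureCounts 1.6.0 and mm10 are named in the submitters' processing notes. The authors deposited 1 table of TPM, in which values are shares and depth is unknown, so no interval from counts is given. Of its 15163 entries, 1 incomplete entry and 22 with date-like names were left out. The table held almost only genes of chromosomes 1 to 5 and 10 to 19, and the listed genes sum to 63.3% to 64.8% of the full TPM scale in the 4 libraries. Genes elsewhere and cytoplasmic ribosomal proteins were not analysed here. It also has 80 columns that no sample's labels match, which were not used.

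Genes at 1 TPM or more in 2 of 26 DIOL and GV libraries were fitted on log2(TPM + 1), a log2 scale computed here from the deposited values, with limma 3.58.1 in R 4.3.3 (trend, robust, Benjamini-Hochberg adjustment). The fit spans 12 groups with 14 residual degrees of freedom and was checked on simulated data. Rescaling used the median of ratios between libraries. Replicate numbers did not pair the libraries (correlation of deviations -0.015). Shared sequence is the percentage of 31-base words of a gene's longest transcript found in another gene.

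The comparison, gene lists and motif were chosen with earlier results of these data known. Genes named are the 12 largest called rises and 12 largest falls without overlap and at 10 TPM or more, per list up to 6 called and 3 uncalled members, and 30 fixed genes. Alternatives covered the pseudocount, filters, scaling, block, samples and libraries.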

Additional observations from a re-analysis of the deposited data

How the results depend on the processing

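As deposited, 2298 genes were higher and 4391 lower. Rescaling by the median of ratios gave 3557 higher and 3281 lower. With each library left out in turn there were 2243 to 2357 higher and 4341 to 4419 lower genes. The numbers did not pair the libraries, and a replicate block gave 2297 and 4388. A pseudocount of 0.1 gave 2597 and 4871, the 4 libraries alone 2239 and 4303, and leaving out 1278 genes of shared sequence 2110 and 3889. Over the last 50 bases in place of 100 the element was in 19.5% of genes that rose, 5.44% of those that fell and 10.7% of all, the shorter window holding fewer matches in each. Between 240 and 279 of the genes that the naming rule picks could be tested under each setting. No gene called in the main fit or under the setting changed sign between them. Genes called in neither could change sign, as Fn1 did under rescaling, from -0.11 to 0.79. Under rescaling 5 of 279 lost their call and 37 gained one; under every other setting run at most 2 lost and at most 6 gained a call. Precision is limited by 2 libraries a group and by unknown depth.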
